A study of Homo sapiens with 6 samples.

Results

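The genes described here are 10 genes of the cohesin machinery and its boundary partner CTCF: the ring subunits SMC1A, SMC3, RAD21, STAG1 and STAG2, the loader NIPBL, the releasing factor WAPL, its partner PDS5A, the acetyltransferase ESCO2, and CTCF. The genes were listed by name for their known roles, with earlier results of these data known, and no measured value entered the rule. Each symbol matched 1 row among the 60656 genes counted. RNA was measured in parental ZR-75-1 cells, an oestrogen receptor-positive human breast cancer line, which still carry RB1. The cells were exposed for 4 days either to abemaciclib, an inhibitor of CDK4 and CDK6, at 500 nM, or to a matching volume of its solvent DMSO, and each group had 3 libraries. RB1-knockout libraries of the same line were not analysed here. The libraries are of bulk RNA from 1 cell line. The labels only number the replicates, and the study describes its cell line RNA replicates as independent cultures.

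Cohesin is a ring built from SMC1A, SMC3 and RAD21, with STAG1 or STAG2 bound to it. NIPBL loads the ring onto DNA and drives loop extrusion, WAPL with PDS5 proteins opens and releases it, and CTCF halts it at loop anchors. In S phase, ESCO2 acetylates SMC3 on newly copied DNA, which locks sister chromatids together until separase cleaves RAD21 in mitosis. The ring therefore serves genome folding throughout interphase and cohesion only from replication to anaphase. The question here was how the RNA of these genes compared between treated and untreated cells, in a study of where Rb sits on chromatin and at looped enhancers.

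The libraries held between 3317860 and 4013156 counts, and 10863 genes had enough counts to be tested. Within a group, the correlation of log2 CPM (counts per 1000000 counts of the TMM-scaled library) between libraries was 0.969 to 0.977, against 0.906 to 0.915 between groups. All 8 luminal epithelial markers examined were detected, with a summed level of 7478 to 7935 CPM with DMSO and 8520.2 to 9512 CPM with abemaciclib. KRT19 made up the largest part of that sum, and the 8 did not move together: KRT19 and ESR1 rose (log2 fold changes 0.45 and 0.83), KRT18 fell (−0.34) and 5 did not pass the test. Of 11 markers of basal, fibroblast, endothelial and leukocyte cells, 8 had 0 counts in every library, and ACTA2, COL1A1 and VWF had at most 57 counts in any library. ACTA2 fell, from 21, 28 and 44 counts to 6, 2 and 6, and its 3′ end overlaps ACTA2-AS1 on the opposite strand. Markers of cycling cells moved with the treatment: all 5 examined fell, against 13.3% of all genes tested that were lower. Their summed level was 2729 to 2883 CPM with DMSO and 192 to 212 CPM with abemaciclib. TOP2A made up the largest part of that sum, at 2035 and 103 CPM on average in the same order. MCM2 fell least, from 153 to 82.9 CPM on average (log2 fold change −0.89), and its 3′ end overlaps ENSG00000285600 on the opposite strand. MKI67, the proliferation antigen, stood at 526 ± 31.4 CPM in the DMSO group and 5.00 ± 2.28 CPM in the abemaciclib group (mean ± SD of 3 libraries each). RB1 stood at 56.2 ± 7.32 and 34.0 ± 2.24 CPM in the same order (log2 fold change −0.73, adjusted P = 0.00104 from edgeR). Fewer cycling cells and less RNA per cell cannot be told apart in bulk samples, and the part of this shift in the results that follow was not tested.

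All 10 genes were tested, and 6 of them (SMC1A, SMC3, RAD21, PDS5A, ESCO2 and CTCF) fell on abemaciclib with an adjusted P below 0.05, against 13.3% of all genes tested that were lower. None of the 10 was higher, against 12.5% of all genes tested, and none was higher at an unadjusted P under 0.05 or with DESeq2. In 8 of the 10, every abemaciclib library lay below every DMSO library, which held for 20.1% of all genes tested. The median log2 fold change of the 10 was −0.40, beside 0.00 for all genes tested. The changes spanned a wide range, from ESCO2, at 10.4% of its DMSO level, to WAPL, whose groups overlapped. The summed level of the 10 genes ran from 1611 to 1654 CPM with DMSO and from 1039.8 to 1128 CPM with abemaciclib.

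**Figure D1:**
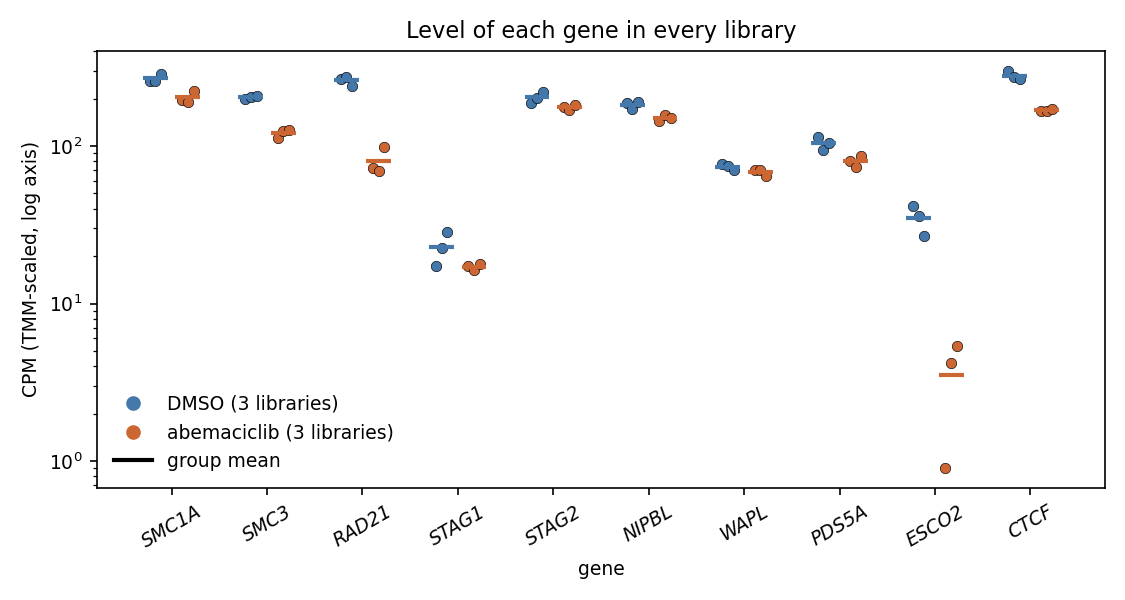
Level of each of the 10 genes in every library, in CPM on a log axis, with the 3 DMSO libraries in blue, the 3 abemaciclib libraries in orange and a bar at each group mean. The groups overlap for STAG1 and WAPL alone among the 10, and the widest gap is that of ESCO2, from 34.8 to 3.50 CPM on average.

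Of the 5 ring genes, 3 fell and 2 did not pass the test, beside 13.3% lower among all genes tested. RAD21, the kleisin that closes the ring and is cut by separase, fell furthest among the ring genes. It lies on chromosome 8 of GRCh38 from 116845934 to 116874776 on the minus strand (ENSG00000164754.15 in the count table). Its level in the 3 DMSO libraries was 267, 274 and 241 CPM, and in the 3 abemaciclib libraries 72.9, 69.6 and 98.4 CPM. The highest abemaciclib library thus held well under the lowest DMSO library. The log2 fold change was −1.70 (standard error 0.12, 95% interval −1.95 to −1.45, adjusted P = 8.11e-12 from edgeR), and 2.84% of all genes tested had a more negative one.

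SMC3, the ATPase subunit that ESCO2 acetylates, lies on chromosome 10 from 110567684 to 110606048 on the plus strand (ENSG00000108055.10). Its level was 200.1, 205 and 208 CPM with DMSO and 112, 124 and 126 CPM with abemaciclib. The DMSO libraries were tightly grouped, and all abemaciclib libraries were below them. The log2 fold change was −0.76 (standard error 0.10, 95% interval −0.97 to −0.54, adjusted P = 2.34e-06 from edgeR). SMC1A, the other ATPase subunit, lies on chromosome X from 53374149 to 53422728 on the minus strand (ENSG00000072501.19). It was at 259.9, 259 and 287 CPM with DMSO and at 196, 191 and 225 CPM with abemaciclib. All abemaciclib libraries were below all DMSO libraries. The log2 fold change was −0.40 (standard error 0.10, 95% interval −0.60 to −0.19, adjusted P = 0.00422 from edgeR). The interval of RAD21 overlapped neither that of SMC3 nor that of SMC1A.

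STAG2 and STAG1 are the alternative STAG subunits, of which a ring carries 1. STAG2 lies on chromosome X from 123960212 to 124422664 on the plus strand (ENSG00000101972.19). Its level was 188, 203 and 219.9 CPM with DMSO and 178, 170.0 and 182 CPM with abemaciclib. The libraries of the 2 groups were adjacent without overlapping, and the difference did not pass the test (log2 fold change −0.20, 95% interval −0.41 to 0.01, edgeR adjusted P = 0.153). STAG1 lies on chromosome 3 from 136336236 to 136752403 on the minus strand (ENSG00000118007.13). It had the lowest DMSO level of the 10 genes, at 17.4, 22.6 and 28.5 CPM, and was at 17.2, 16.3 and 17.8 CPM with abemaciclib. The groups overlapped, and the DMSO libraries alone spread more widely than the group means differed (log2 fold change −0.41, 95% interval −0.88 to 0.06, edgeR adjusted P = 0.200). The last 500 bases of STAG1 overlap an exon of PCCB on the other strand, which leaves its counts uncertain, and PCCB itself was at 28.7 ± 1.44 and 39.4 ± 7.05 CPM in the DMSO and abemaciclib groups (SD, n = 3).

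CTCF, the zinc-finger protein that marks loop anchors and domain borders, lies on chromosome 16 from 67562467 to 67639177 on the plus strand (ENSG00000102974.16). It had the highest DMSO level of the 10 genes, at 301, 273 and 264 CPM. With abemaciclib it was at 167, 168 and 172 CPM. The abemaciclib libraries were nearly equal and all far below the DMSO libraries. The log2 fold change was −0.72 (standard error 0.10, 95% interval −0.93 to −0.52, adjusted P = 1.95e-06 from edgeR), an interval that overlaps that of SMC3 almost entirely.

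Of the 4 regulators, ESCO2 and PDS5A fell, and NIPBL and WAPL did not pass the test, beside 13.3% lower among all genes tested. With 4 genes, and with the call of PDS5A lost under several alternatives, nothing is read from this count. ESCO2 lies on chromosome 8 from 27771949 to 27812640 on the plus strand (ENSG00000171320.15). Its level was 41.5, 35.9 and 27.0 CPM with DMSO and 0.908, 4.19 and 5.40 CPM with abemaciclib, from 143, 121 and 89 counts and from 3, 17 and 20 counts. Abemaciclib replicate 1 was the lowest library, at 3 counts, which is the number that a count of 0 allows. The log2 fold change was −3.27 (standard error 0.33, 95% interval −3.93 to −2.60, adjusted P = 6.92e-09 from edgeR), the most negative of the 10, and without that library it was −2.85 (adjusted P = 1.03e-08 from edgeR).

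PDS5A, a HEAT-repeat protein that binds the ring and serves both release and protection, lies on chromosome 4 from 39822863 to 39977956 on the minus strand (ENSG00000121892.15). It was at 115, 94.5 and 105 CPM with DMSO and at 80.8, 73.8 and 86.7 CPM with abemaciclib. The groups did not overlap, and the log2 fold change was −0.38 (standard error 0.12, 95% interval −0.64 to −0.13, adjusted P = 0.0224 from edgeR). This call was not firm. It was lost with DESeq2 (adjusted P = 0.0516), and in edgeR without DMSO replicate 1 (adjusted P = 0.130), DMSO replicate 3 (adjusted P = 0.0582) or abemaciclib replicate 2 (adjusted P = 0.116).

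NIPBL, the loader, lies on chromosome 5 from 36876769 to 37066413 on the plus strand (ENSG00000164190.19). Its level was 188, 171 and 189.9 CPM with DMSO and 145, 158 and 150.2 CPM with abemaciclib. Every abemaciclib library was below every DMSO library, and the difference stood just outside the threshold (log2 fold change −0.27, 95% interval −0.49 to −0.06, edgeR adjusted P = 0.0520). It fell inside the threshold when counts were scaled by library totals alone (adjusted P = 0.0427 from edgeR) or when at least 10 counts were required in every library (adjusted P = 0.0401 from edgeR). WAPL, the releasing factor, lies on chromosome 10 from 86435256 to 86521792 on the minus strand (ENSG00000062650.19). It was at 76.6, 74.3 and 70.0 CPM with DMSO and at 70.2, 70.8 and 64.3 CPM with abemaciclib. The groups overlapped, and the 95% interval of the log2 fold change (−0.11) ran from −0.37 to 0.16, so a fall as large as that of SMC3 lies outside it (edgeR adjusted P = 0.612).

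**Figure D2:**
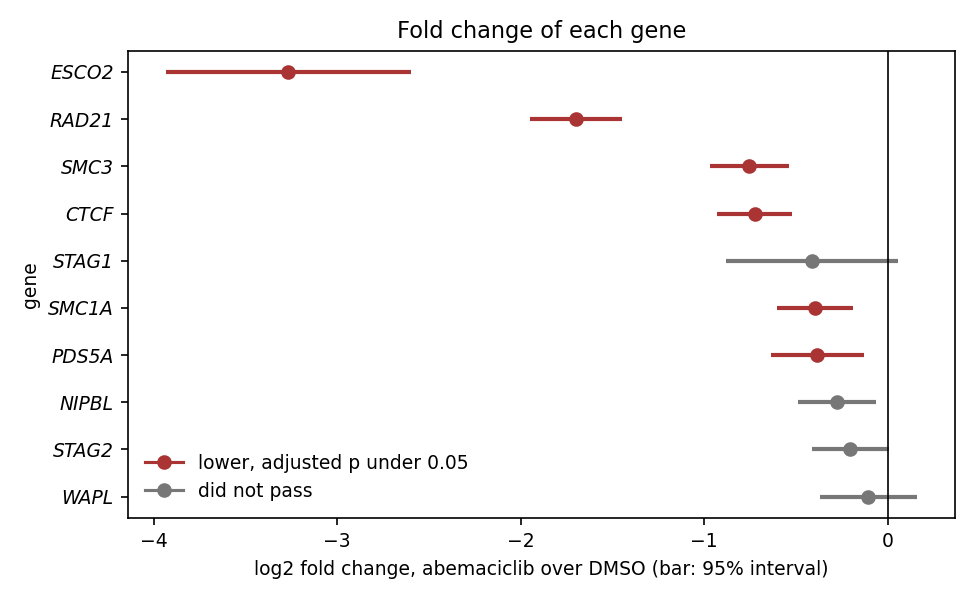
Log2 fold change of each gene, abemaciclib over DMSO, as a point with its 95% interval from edgeR, ordered by size. The 6 genes in red passed an adjusted P of 0.05, the 4 in grey did not, and the intervals of ESCO2 (−3.93 to −2.60) and RAD21 (−1.95 to −1.45) lie apart from those of the other 8.

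The spread between libraries differed among the genes. With DMSO, the coefficient of variation was lowest for SMC3, at 1.88%, and highest for STAG1 and ESCO2, at 24.3% and 21.1%. Counting error alone would give 3.81%, 11.4% and 9.22% for these 3 genes. With abemaciclib, ESCO2 varied by 66.4% and RAD21 by 19.6%, against 27.4% and 5.82% from counting error, while CTCF varied by 1.54%. The 2 genes that fell furthest were thus also those whose abemaciclib libraries differed most from each other.

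Reads of a 3′ kit come from the ends of transcripts, so CPM values are not divided by gene length, and levels of different genes were ordered on that scale. With DMSO the order was CTCF, SMC1A, RAD21, SMC3, STAG2, NIPBL, PDS5A, WAPL, ESCO2 and STAG1. Neighbours in this order had overlapping DMSO libraries for CTCF and SMC1A, SMC1A and RAD21, SMC3 and STAG2, STAG2 and NIPBL, and ESCO2 and STAG1. They did not overlap for RAD21 and SMC3, NIPBL and PDS5A, PDS5A and WAPL, or WAPL and ESCO2. With DMSO, RAD21 (241 to 274 CPM) stood above SMC3 (200.1 to 208 CPM) in every library. With abemaciclib the order of these 2 was the opposite, with 69.6 to 98.4 CPM for RAD21 and 112 to 126 CPM for SMC3.

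Ratios of partner genes within a library do not depend on scaling, but they are built from the same counts as the fold changes. Of 6 ratios tested, 3 did not overlap between groups. The share among other gene pairs was not computed, so nothing is read from that count. With 3 libraries against 3 an exact permutation test cannot go below P = 0.1, so none could pass a threshold of 0.05. The log2 ratio of CTCF to RAD21 was 0.10 ± 0.09 with DMSO and 1.09 ± 0.25 with abemaciclib (SD, n = 3; exact permutation test, two-sided, P = 0.1, adjusted P = 0.2 over the 6 ratios). CTCF counts were thus 0.997 to 1.13 times those of RAD21 with DMSO and 1.75 to 2.41 times with abemaciclib. The log2 ratio of SMC1A to SMC3, the subunits that pair head to head in the ring, was 0.39 ± 0.06 with DMSO and 0.75 ± 0.11 with abemaciclib (SD, n = 3; exact permutation test, two-sided, P = 0.1, adjusted P = 0.2).

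ESCO2 and ESCO1 are the S phase and the cell cycle-wide acetyltransferases of SMC3. The log2 ratio of ESCO2 to ESCO1 was −0.64 ± 0.36 with DMSO and −4.56 ± 1.29 with abemaciclib (SD, n = 3; exact permutation test, two-sided, P = 0.1, adjusted P = 0.2). ESCO1 itself was at 55.1, 49.6 and 56.0 CPM with DMSO and at 69.6, 67.4 and 70.0 CPM with abemaciclib. Its groups did not overlap in the upward direction, but it did not pass the test (log2 fold change 0.36, 95% interval 0.08 to 0.64, edgeR adjusted P = 0.0501). It passed with the size factors of DESeq2 in edgeR (adjusted P = 0.0478).

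The other 3 ratios overlapped between groups. STAG2 to STAG1 had a log2 ratio of 3.17 ± 0.24 with DMSO and 3.36 ± 0.02 with abemaciclib (SD, n = 3; exact permutation test, two-sided, P = 0.4). STAG2 counts were 7.69 to 10.7 times those of STAG1 with DMSO and 10.1 to 10.4 times with abemaciclib. NIPBL to WAPL, the loader over the releaser, had a log2 ratio of 1.31 ± 0.12 with DMSO and 1.14 ± 0.09 with abemaciclib (SD, n = 3; exact permutation test, two-sided, P = 0.2). PDS5A to its paralogue PDS5B stood at 0.16 ± 0.09 and 0.37 ± 0.17 (SD, n = 3; exact permutation test, two-sided, P = 0.2). A further ratio, RAD21 to SMC3, was added after the values had been seen and was not tested. It was 0.35 ± 0.12 on the log2 scale with DMSO and −0.60 ± 0.24 with abemaciclib (SD, n = 3), without overlap.

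**Figure D3:**
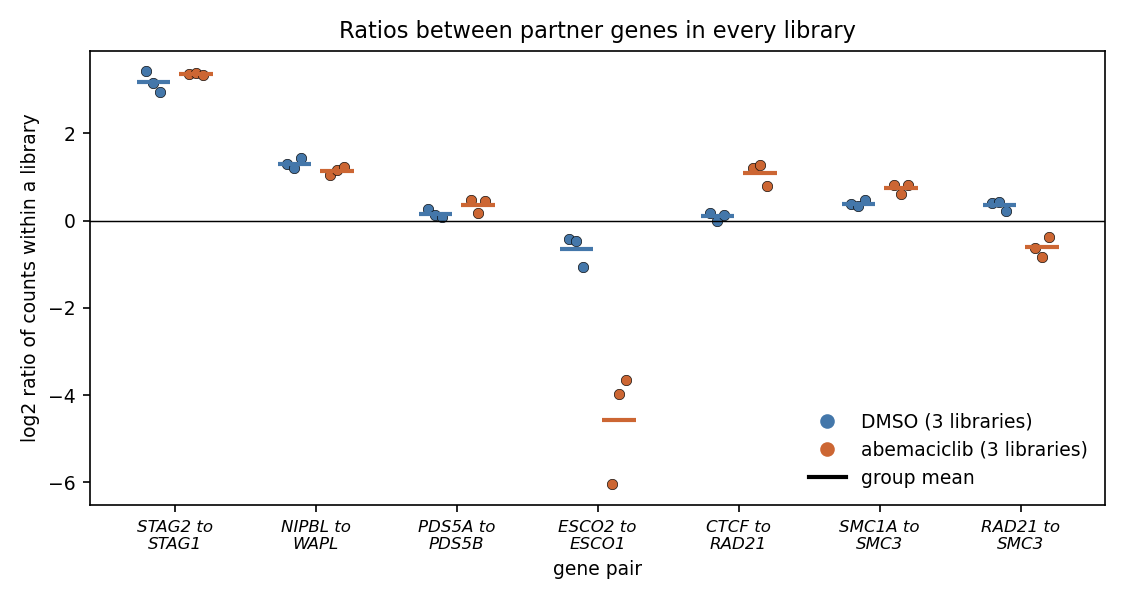
Log2 ratio of the counts of partner genes in every library, with the 3 DMSO libraries in blue, the 3 abemaciclib libraries in orange and a bar at each group mean. The groups separate for ESCO2 to ESCO1, CTCF to RAD21, SMC1A to SMC3 and RAD21 to SMC3, and overlap for the other 3 ratios.

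Among the 9738 other genes with a mean of at least 5 CPM, the 5 whose deviations from their own mean over the 6 libraries lay nearest to those of ESCO2 were ESPL1, RIPPLY3, GTSE1, H2AC21 and ASPM. The root mean square difference in log2 CPM ran from 0.27 for ESPL1 to 0.49 for ASPM. ESPL1 encodes separase, the protease that cuts RAD21. ESPL1 was at 15.95, 16.3 and 17.3 CPM with DMSO and at 0.303, 1.48 and 1.89 CPM with abemaciclib, from 1, 6 and 7 counts. Its lowest library was abemaciclib replicate 1, as for ESCO2, which is part of how these genes were picked. The log2 fold changes of the 5 ran from −3.68 for ESPL1 to −3.00 for ASPM. Values near that of ESCO2 follow from how the 5 were picked, so nothing is read from them. All but ASPM averaged under 5 CPM with abemaciclib and passed the filter through their DMSO level. RIPPLY3 and H2AC21 were at 0 CPM in abemaciclib replicate 1. ASPM, a spindle pole protein, was the most abundant, at 345 CPM with DMSO and 42.9 CPM with abemaciclib on average. H2AC21 belongs to a histone family of near-identical copies, so its counts are uncertain.

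A list of 20 further genes of the cohesin cycle, written from general knowledge, held 18 that could be tested. Of these, 11 were lower and 1, MAU2, was higher with abemaciclib, with a median log2 fold change of −0.87, against 13.3% lower and 12.5% higher among all genes tested. AURKB, the Aurora kinase of the chromosomal passenger complex, went from 72.8, 80.8 and 62.4 CPM to 0.908, 0.493 and 0.540 CPM (log2 fold change −6.75, standard error 0.30, adjusted P = 1.96e-16 from edgeR). Its abemaciclib libraries held only 3, 2 and 2 counts. PTTG1, the securin that holds separase inactive, went from 205 ± 6.83 to 6.30 ± 0.53 CPM (mean ± SD, n = 3; log2 fold change −5.01, adjusted P = 4.94e-20 from edgeR). PLK1, which drives removal of cohesin from chromosome arms, went from 164 ± 21.5 to 8.30 ± 2.45 CPM (mean ± SD, n = 3; log2 fold change −4.31, adjusted P = 3.86e-17 from edgeR), with 58 bases of its 3′ end overlapping ERN2 on the opposite strand. Each of these 3 genes had all abemaciclib libraries far below all DMSO libraries.

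The other 8 genes of the list that fell were ESPL1, BUB1, TIPIN, CDCA5, WDHD1, SGO1, TIMELESS and PDS5B, and all but ESPL1 and PDS5B are named after their values were seen. CDCA5, or sororin, which shields cohesive rings from WAPL, went from 10.7, 14.3 and 18.2 CPM to 6.05, 3.95 and 7.30 CPM (log2 fold change −1.32, standard error 0.34). SGO1, or shugoshin, which protects centromeric cohesin, went from 66.4, 58.5 and 59.7 CPM to 27.5, 27.9 and 39.7 CPM (log2 fold change −0.96, standard error 0.17). PDS5B was at 95.7, 86.7 and 98.7 CPM with DMSO and at 58.1, 65.4 and 63.2 CPM with abemaciclib (log2 fold change −0.59, standard error 0.13, adjusted P = 0.000863 from edgeR). MAU2, the partner of NIPBL in the loader, was at 25.8, 25.2 and 33.9 CPM with DMSO and at 37.2, 50.8 and 33.2 CPM with abemaciclib, so its groups overlapped (log2 fold change 0.52, edgeR adjusted P = 0.0482). Its call was lost with DESeq2 (adjusted P = 0.114), and in edgeR without DMSO replicate 1, DMSO replicate 2 or abemaciclib replicate 2 (adjusted P = 0.159, 0.184 and 0.325). It was also lost with a replicate block (adjusted P = 0.0864), with library totals alone (adjusted P = 0.0592) and under the stricter filter of 10 counts (adjusted P = 0.0535). HASPIN had at most 13 counts in a library and was not tested. CHTF8 had 0 counts in all 6 libraries, and its annotated 3′ end lies within exons of DERPC on the same strand.

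The germline paralogues of the ring subunits and of CTCF (SMC1B, STAG3, REC8, RAD21L1 and CTCFL) had together between 0 and 9 counts in a library, and STAG3 and CTCFL had 0 in all 6. The pseudogenes RAD21P1 and SMC3P1 had at most 2 counts. These counts were few beside the 241 to 922 counts of RAD21 and the 370 to 690 counts of SMC3 in a library. How reads matching several genes were counted is not given in the sources used here. The number of shared reads therefore cannot be judged from these counts.

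Of 10 other factors tied to chromatin loops, all tested, 3 were lower and 0 higher (1 was higher at an unadjusted P under 0.05, and 0 with DESeq2), against 13.3% lower and 12.5% higher among all genes tested. With 10 genes, and with the call of PATZ1 lost under several alternatives, nothing is read from this count. VEZF1, a zinc-finger protein, fell from 116 ± 6.09 to 66.9 ± 7.65 CPM (mean ± SD, n = 3; log2 fold change −0.79, adjusted P = 1.81e-05 from edgeR). MAZ, a zinc-finger protein found beside CTCF at insulators, fell from 477 ± 6.60 to 354 ± 15.2 CPM (mean ± SD, n = 3; log2 fold change −0.43, adjusted P = 0.000668 from edgeR), and its 3′ end overlaps MVP-DT on the opposite strand. PATZ1 had a log2 fold change of −0.34 (edgeR adjusted P = 0.0405). It no longer passed on leaving out DMSO replicate 1 (−0.21 on the log2 scale), DMSO replicate 3 (−0.37), abemaciclib replicate 1 (−0.33) or abemaciclib replicate 2 (−0.35), nor with DESeq2, a replicate block or no filter on low counts. The median of the 10 was −0.22, and it was −0.036 without DMSO replicate 3 and −0.09 without abemaciclib replicate 3. LDB1, an adaptor that joins looped enhancers and promoters, was at 18.9, 23.2 and 28.2 CPM with DMSO and at 36.3, 41.7 and 21.3 CPM with abemaciclib. Its groups overlapped and it did not pass (log2 fold change 0.50, edgeR adjusted P = 0.102), but it passed without abemaciclib replicate 3, its lowest abemaciclib library (log2 fold change 0.74, edgeR adjusted P = 0.00496). YY1, an enhancer-promoter looping factor, and the Mediator subunits MED1 and MED12, like LDB1 named after their values were seen, did not pass the test, with log2 fold changes of −0.14, 0.09 and −0.30.

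Condensin and the SMC5/6 complex are the other SMC rings of the cell, and their 16 genes were set beside cohesin. All were tested, 10 were lower and 0 higher (0 at an unadjusted P under 0.05, and 0 with DESeq2), and the median log2 fold change was −0.66. All 8 condensin genes fell, with a median of −1.25, against 2 of 8 for SMC5/6, with a median of −0.39, beside 13.3% lower among all genes tested. Nothing is read from the SMC5/6 count. NCAPG, NCAPD2 and NCAPH, the condensin I subunits, had log2 fold changes of −2.57, −2.03 and −1.87, and NCAPG overlaps LCORL on the opposite strand at its 3′ end. The condensin ATPases SMC2 and SMC4, named after their values were seen, had log2 fold changes of −0.57 and −1.01, beside −0.40 and −0.76 for the cohesin ATPases SMC1A and SMC3. At their 3′ ends SMC4, NCAPD3 and NCAPH2 overlap TRIM59, JAM3 and SCO2 on the opposite strand. NCAPH2 also overlaps ENSG00000272821 on the same strand, so its counts are uncertain whichever strand setting was used. Of the 2 SMC5/6 genes lower, also named after their values were seen, SMC6 lost its call with DESeq2 and on leaving out DMSO replicate 1, 2 or 3 or abemaciclib replicate 1 or 2, with log2 fold changes from −0.81 to −0.43, and NSMCE1 had a log2 fold change of −0.49. NCAPD3 lost its call with DESeq2 and without DMSO replicate 3 (log2 fold change −0.56), abemaciclib replicate 1 (−0.77) or abemaciclib replicate 2 (−0.72). Differences between the lists were not tested.

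The promoters of the genes are shown because several moved together and because the study concerns Rb, which acts at promoters through E2F factors. RefSeq (GRCh38.p14) gave promoter windows of 300 bases, from 250 before to 50 after the start, for 8 of the 10 genes, with entries absent for RAD21 and ESCO2. The windows were searched on both strands for an E2F motif (TTTGGCGC or TTTCGCGC), for the CHR element (TTTGAA) that the DREAM and MuvB complexes bind at cell cycle genes, and for the CCAAT box (CCAAT), and no matches overlapped each other. Matches are a description of letters and not of binding. E2F sites spelled with other letters were not searched for, so a window without a match may still hold one. The E2F motif was in 1.15% of all 35116 promoter windows, the CHR letters in 15.2% and CCAAT in 34.6%. SMC3 and CTCF each had 1 CHR match, 151 and 146 bases before the start, and no match to the E2F letters searched. SMC1A had no match to any of the 3 in either of its 2 windows. NIPBL had an E2F match 49 bases before the start, and STAG2 had one 51 bases before 1 of its 3 annotated starts. Of the letters searched, PDS5A, STAG1 and WAPL had CCAAT matches only. With 8 genes, nothing is read from these matches, and whether they go with the changes in RNA was not tested. The part of each window outside the annotated gene follows for SMC3, CTCF, SMC1A and NIPBL, 5′ to 3′ on the strand of the gene, with motif matches in capitals.
SMC3 (chr10:110567445-110567683, plus strand): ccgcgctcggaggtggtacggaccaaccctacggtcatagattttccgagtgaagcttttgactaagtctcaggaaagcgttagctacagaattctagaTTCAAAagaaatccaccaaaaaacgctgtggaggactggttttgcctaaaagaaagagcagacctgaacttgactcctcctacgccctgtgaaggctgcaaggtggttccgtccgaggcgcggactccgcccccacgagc
CTCF (chr16:67562276-67562466, plus strand): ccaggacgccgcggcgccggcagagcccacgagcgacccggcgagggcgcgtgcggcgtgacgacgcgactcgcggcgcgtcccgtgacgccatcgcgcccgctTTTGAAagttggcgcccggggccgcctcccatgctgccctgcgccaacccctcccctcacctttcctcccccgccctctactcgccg
SMC1A (chrX:53422729-53422978, minus strand): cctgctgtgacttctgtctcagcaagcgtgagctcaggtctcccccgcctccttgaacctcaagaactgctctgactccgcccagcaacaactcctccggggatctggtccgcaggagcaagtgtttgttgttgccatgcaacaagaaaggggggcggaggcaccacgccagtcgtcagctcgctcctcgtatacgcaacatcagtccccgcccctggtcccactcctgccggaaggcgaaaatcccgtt
NIPBL (chr5:36876519-36876768, plus strand): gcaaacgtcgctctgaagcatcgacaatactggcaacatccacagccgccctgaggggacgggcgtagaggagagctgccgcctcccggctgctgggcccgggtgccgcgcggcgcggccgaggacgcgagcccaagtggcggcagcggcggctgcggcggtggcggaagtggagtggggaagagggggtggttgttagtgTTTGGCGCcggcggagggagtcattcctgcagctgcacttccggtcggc
The capitals are TTCAAA in SMC3, which is the CHR element read on the opposite strand, TTTGAA in CTCF and TTTGGCGC in NIPBL. SMC1A has none.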

How the data were processed

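RNA was measured with a 3′ mRNA kit in 3 DMSO and 3 abemaciclib libraries of parental ZR-75-1 cells, grouped by their labels. The authors trimmed reads (BBDuk), used STAR (2.7.5b) to place them on hg38 and featureCounts (2.0.1) to count them per gene, and the deposited values are these raw counts, unfiltered. Whether the counting used strand is not given in the sources used here, so genes that overlap on opposite strands are uncertain. Symbols were matched by Ensembl identifier, and coordinates and 3′ overlaps (last 500 bases of the canonical transcript) are from GENCODE on GRCh38, a later release than that of the counts.

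Abemaciclib was compared with DMSO in edgeR 4.0.16 under R 4.3.3 (filterByExpr, TMM, glmQLFit and glmQLFTest, treatment as the only term, adjustment by Benjamini–Hochberg across 10863 genes, threshold 0.05). The standard error is the size of the log2 fold change divided by the square root of F. The study's own tool, DESeq2 (1.42.0 here), was an alternative. Ratios used log2 of counts plus 0.5, tested by exact permutation. A count of 0 allows 3 counts, or 0.740 to 0.909 CPM by library, for counting error only. The tests were checked on simulated data. Same-numbered libraries did not deviate together, with correlations of −0.11 to 0.00, so the numbers were not taken as pairs.

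The genes and lists were chosen with earlier results of these data known. All 10 genes are described. From the other lists, genes called were named where there were at most 6, otherwise the 3 furthest each way with a mean of at least 5 CPM, along with partners in ratios, the 5 genes nearest to ESCO2, and MKI67 and RB1. Alternatives were another scaling, another filter, DESeq2, a replicate block, a pseudocount of 1 for ratios, and leaving out each library in turn. One gene of the other lists is not reported by name here.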

Additional observations from a re-analysis of the deposited data

How the results depend on the processing

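Of 324 values recomputed under an alternative, 303 held. A fold change held on the same side of the threshold, a count within 1.5 times, and a ratio or list median within 1 SD. None reversed. The log2 fold change of PDS5A was −0.38 with DESeq2, where its call was lost, and −0.45 to −0.32 with each library left out. That of NIPBL passed with at least 10 counts in every library (−0.28) and with library totals alone (−0.29). The other 8 genes described kept their side of the threshold under every alternative run, except that ESCO2 could not be tested with at least 10 counts in every library, since 1 library held 3. With each library left out, 5 to 6 of the 10 genes were lower.

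In the wider cohesin cycle, 0 genes were higher with DESeq2, at least 10 counts in every library, a replicate block or library totals alone, 2 with DESeq2 size factors in edgeR, and 0 to 1 with each library left out. The median of that list was −0.95 with DESeq2, −0.73 with at least 10 counts in every library, −0.95 with no filter on low counts and −0.91 to −0.77 with each library left out. For other looping factors, 0 to 1 genes were higher and the median was −0.28 to −0.036 with each library left out. The cause of these shifts was not tested.

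The replicate block left 6 of the 10 genes lower and changed no call among them, while the pairing of numbers was not borne out by the libraries. Across all genes it left 1139 higher and 1280 lower, from 1354 and 1442. Depth limits STAG1 and ESCO2 most, with 57 to 94 counts and 3 to 143 counts per library. The further ratio of RAD21 to SMC3 was chosen after seeing the data.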
